A study of Bos taurus with 94 samples.

Results

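The genes described here are the 6 that encode the major milk proteins of cattle, the caseins CSN1S1 (ENSBTAG00000007695), CSN2 (ENSBTAG00000002632), CSN1S2 (ENSBTAG00000005005) and CSN3 (ENSBTAG00000039787) and the whey proteins PAEP (ENSBTAG00000014678) and LALBA (ENSBTAG00000005859). They were taken by Ensembl identifier from a table of 24616 genes and followed through all 94 libraries. The libraries are RNA sequencing profiles of tissues of Hereford cattle, a beef breed, and every library carries the age label adult, the fetal testis included. Values are FPKM, a fragment count divided by transcript length and sequencing depth, so levels of different genes are compared per length. The 94 libraries fall into 35 groups by tissue label, 20 of them with 2 or more libraries. The mammary group holds 2 libraries, labelled Mammary and Mammary_gland. They are numbered replicate 1 and replicate 2 here only to tell them apart, as the labels give no replicate numbers. Against this group stand 92 libraries, among them a library of mammary gland fat. No label names the animal, its sex or whether it was lactating, so nothing shows that the mammary libraries came from different animals, and the p-values measure the spread between libraries only. The read depth behind each library is unknown. In bulk tissue, fewer cells of a type and less RNA per cell cannot be told apart.

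Caseins are phosphoproteins that assemble with calcium phosphate into the micelles of milk. CSN1S1, CSN2 and CSN1S2 encode the calcium-sensitive alpha-S1, beta and alpha-S2 caseins, and CSN3 encodes kappa-casein, which coats the micelle and is the protein cleaved by chymosin when milk clots. PAEP encodes beta-lactoglobulin, the main whey protein of ruminant milk and a member of the lipocalin family; in humans the same gene makes glycodelin, known from the endometrium. LALBA encodes alpha-lactalbumin, the regulatory subunit of lactose synthase. Secretory cells of the mammary gland switch these genes on in pregnancy and lactation under prolactin and glucocorticoids. In the RefSeq gene table for ARS-UCD2.0 all 6 symbols were found, on 3 chromosomes. The 4 caseins lie close together in the order CSN1S1, CSN2, CSN1S2 and CSN3, among 8 protein-coding genes that also include HSTN, STATH, PRR27 and ODAM. That table lists no Ensembl identifier of the expression table, so these neighbours were not analysed here.

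Library totals ran from 585122 to 1062591 FPKM, and 7353 to 14198 genes reached 1 FPKM, with a median of 12442. Mammary replicate 1 had 10044 such genes and replicate 2 had 13369. Across all genes tested the mammary libraries were not alike, with a Spearman's rho of 0.764 between them. Replicate 1 was closest to the pineal gland library (0.858) and replicate 2 to the fornix of the vagina (0.905). On the 20 genes that stood highest in the pituitary and pineal libraries over all libraries outside the mammary group, replicate 1 averaged 9.11 and replicate 2 averaged 1.03 on the log2(FPKM + 1) scale. The pituitary and pineal libraries themselves ran from 8.34 to 10.46, and the 88 remaining libraries from 0.35 to 5.77 with a median of 1.12. In replicate 1 the level of these 20 genes thus lay within the range of the pituitary and pineal libraries. Their part in the results below was not tested, and the log2 differences between mammary and other libraries are also given without that library. Mammary gland fat was closest to the urethra (0.885). A further 9 libraries outside the mammary group, each closest to a library of another tissue, were chosen after seeing the data and left out together in an alternative. They are not all the libraries of that kind, since a tissue with 1 library, such as the abomasum, can only be closest to another tissue. Of these 9 the vesicular gland, closest to subcutaneous fat (0.970), is the only one among the libraries with all 6 milk protein genes described below.

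In the mammary libraries the milk protein genes were among the most abundant transcripts of the tissue. Together they took 41.3% of all FPKM in replicate 1 and 2.43% in replicate 2. In replicate 1 LALBA and PAEP ranked 1 and 2 among all genes and the caseins CSN1S1, CSN2, CSN1S2 and CSN3 ranked 5, 6, 7 and 8. In replicate 2 the order was different, with CSN3 at rank 11, CSN2 at 14, CSN1S1 at 21, PAEP at 31, CSN1S2 at 108 and LALBA at 146.

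Among the calcium-sensitive caseins, CSN1S1 had 20321 FPKM in mammary replicate 1 and 3336 FPKM in replicate 2. It was listed at 0 in 69 of the 92 other libraries and reached at most 35.1 FPKM among them. CSN2 had 12469 and 4261 FPKM in mammary replicates 1 and 2, against at most 52.2 FPKM in any other library. Both genes thus stood above every other library in each mammary library, by at least 95.0 and 81.6 times. CSN1S2 had 12225 and 1134 FPKM in mammary replicates 1 and 2, against at most 21.3 FPKM elsewhere, and was listed at 0 in 75 of the other 92. CSN3 had 11669 and 4694 FPKM in mammary replicates 1 and 2, against at most 218 FPKM elsewhere. It was the member most often found outside the mammary gland, above 0 in 37 of the 92 other libraries and at 1 FPKM or more in 16.

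Of the whey proteins, PAEP had 128763 FPKM in mammary replicate 1 and 2672 FPKM in replicate 2, against at most 60.4 FPKM elsewhere. LALBA had 235483 and 630.3 FPKM in mammary replicates 1 and 2, against at most 97.3 FPKM elsewhere. The lower mammary library lay 44.3 times above the highest other library for PAEP but only 6.48 times for LALBA. The median of the 92 other libraries was 0 for every one of the 6 genes, and for none of the 6 did the mammary libraries overlap with the others, where both mammary libraries lay above every other library for 0.0721% of all genes tested (13 of 18031).

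**Figure D1:**
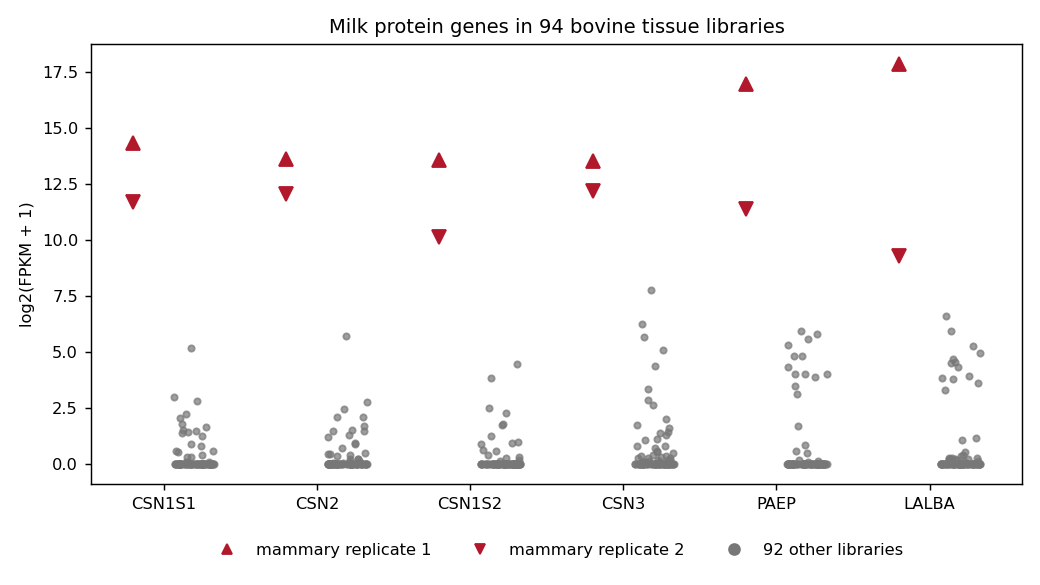
Level of each milk protein gene as log2(FPKM + 1); red triangles are the mammary libraries (up, replicate 1; down, replicate 2) and grey points the 92 other libraries, spread sideways for visibility. Both mammary libraries lie above all others for each gene, and they lie furthest apart for LALBA (235483 and 630.3 FPKM).

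Tested against all 92 other libraries, 6 of 6 milk protein genes were higher in the mammary group. The test was limma on log2(FPKM + 1) with Benjamini-Hochberg adjustment over 18031 genes, and a gene was called where the adjusted p was below 0.05 and the log2 difference was 1 or more in size. Among all genes tested, 0.272% were called higher and 0.111% were called lower. The 6 genes also had the 6 largest log2 differences of the 18031 (but LALBA was at rank 9 with mammary replicate 2 alone and CSN3 at rank 7 with replicate 1 alone), and each passed the filter on low values with at least 8 libraries outside the mammary group at 1 FPKM or more. Among caseins, CSN1S1 averaged 13.01 in mammary and 0.33 in other libraries on that scale, so the difference was 12.67 ± 0.60 log2 units (SE, limma adjusted p = 3.44e-34). The difference was 12.51 ± 0.59 for CSN2 (limma adjusted p = 3.44e-34), 11.61 ± 0.56 for CSN1S2 (1.89e-33) and 12.23 ± 1.01 for CSN3 (1.27e-17). For the whey proteins it was 13.49 ± 1.17 for PAEP (limma adjusted p = 1.56e-16) and 12.86 ± 1.22 for LALBA (1.42e-14). These SEs and p-values pool all 94 libraries, most of which have each gene listed at 0. They do not measure how far the mammary libraries differ, which for LALBA alone gave differences of 8.59 and 17.13. The exact two-sided permutation test over libraries, run once for each of the 6 genes without adjustment, gave p = 0.000229 every time, the smallest value that its 4371 splits allow.

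The size of these differences varied with the mammary library, and all 6 genes were called with either library alone. With mammary replicate 2 as the only mammary library, assumed to vary as the others do, the log2 difference was 11.73 for CSN2, 11.58 for CSN3, 11.37 for CSN1S1, 10.70 for PAEP, 9.89 for CSN1S2 and 8.59 for LALBA. With replicate 1 alone it was 17.13 for LALBA and 16.29 for PAEP, and 12.89 to 13.98 for the caseins. The largest limma adjusted p was 0.000518, for LALBA in replicate 2, and 0.205% of genes were called higher with replicate 2 alone and 0.86% with replicate 1 alone. The library of mammary gland fat had all 6 genes listed at 0. Counting it as a mammary library lowered the log2 differences to 7.65 to 8.76, with all 6 still called where 0.227% of genes were.

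**Figure D2:**
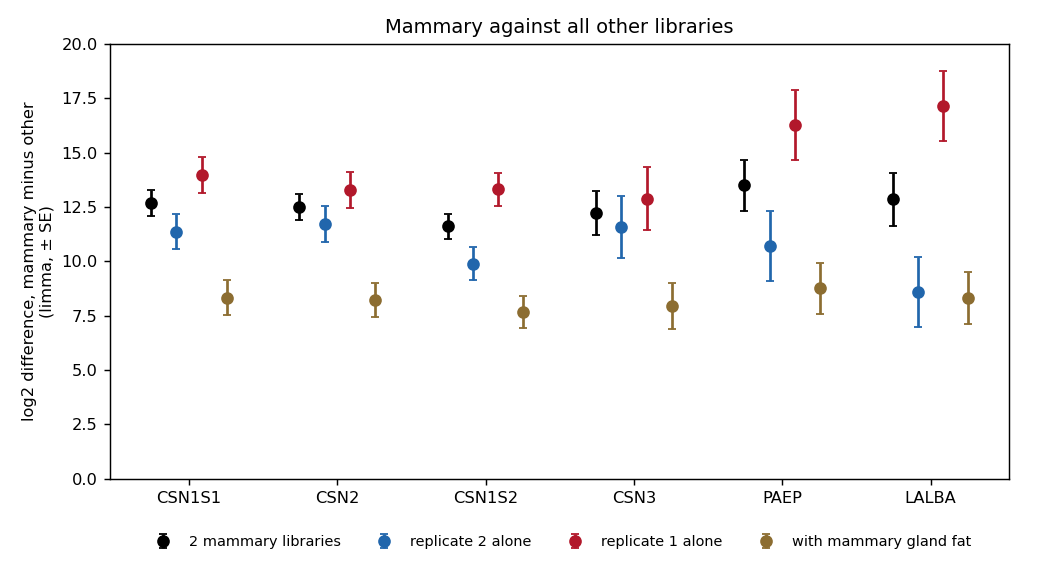
Log2 difference of each gene between mammary and all other libraries, with its SE from limma, for both mammary libraries together, for each alone, and with mammary gland fat added to the mammary side. Between the mammary libraries taken alone, LALBA goes from 8.59 with replicate 2 to 17.13 with replicate 1, a wider range than that of any casein. With mammary gland fat added it is 8.33.

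The mammary libraries also differed in the mixture of milk protein transcripts. In replicate 1 the whey proteins made up 86.5% of the summed FPKM of the 6 genes and the caseins 13.5%, whereas in replicate 2 the whey proteins made up 19.7% and the caseins 80.3%. LALBA alone was 55.9% of the sum in replicate 1 and 3.77% in replicate 2. PAEP was 30.6% and 16.0% of it in replicates 1 and 2. The quotient of replicate 1 over replicate 2 was 2.49 for CSN3, 2.93 for CSN2, 6.09 for CSN1S1, 10.8 for CSN1S2, 48.2 for PAEP and 374 for LALBA. Within the caseins CSN1S1 led in replicate 1 with 35.9% of the casein FPKM, and CSN3 and CSN2 led in replicate 2 with 35.0% and 31.7%. CSN1S2 was 21.6% of casein FPKM in replicate 1 and 8.45% in replicate 2. Each of these is a comparison of single libraries with no replicate check.

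Outside the mammary group milk protein transcripts were mostly low. All 6 genes stayed below 1 FPKM in 71 of 92 libraries, and in 43 of these all 6 were listed at 0. In the other 21 at least 1 gene reached 1 FPKM. Some of the 21 carried 1 or a few caseins with little or no whey protein, 13 carried the whole set, and a pair of muscles carried mainly whey proteins.

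**Figure D3:**
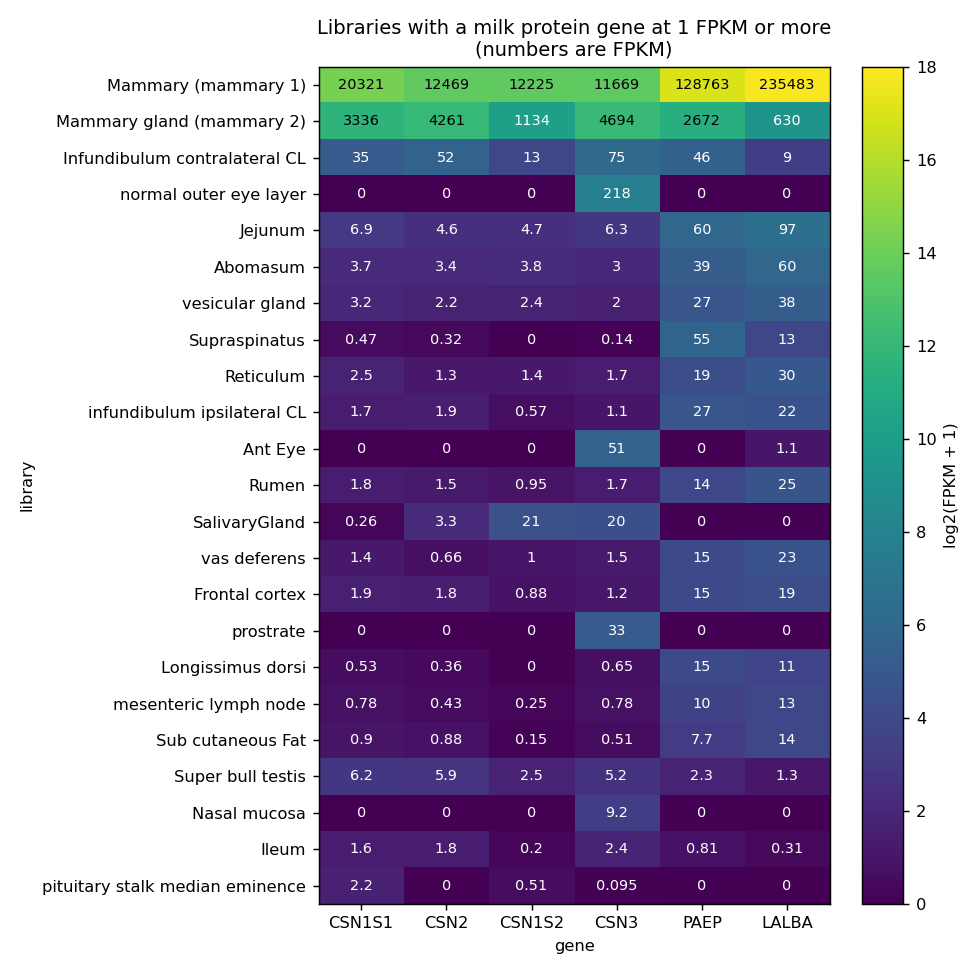
FPKM of the 6 genes in the 23 libraries where at least 1 of them reached 1 FPKM, coloured by log2(FPKM + 1) with the mammary libraries on top and the rest by falling sum. CSN3 stands alone in the outer eye layer (218 FPKM), while the jejunum and abomasum carry all 6 genes.

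CSN3, the micelle-coating casein, was the only milk protein gene above 0 in 3 of these 21 libraries. It had 218 FPKM in the outer eye layer sampled near an eye cancer and labelled normal, and 33.3 FPKM in the library labelled prostrate. It had 9.24 FPKM in the nasal mucosa. The anterior eye library (Ant_Eye) was similar, with 50.7 FPKM of CSN3, 1.12 FPKM of LALBA and the other 4 genes listed at 0. In the library of the eye cancer itself CSN3 had 0.443 FPKM. The outer eye level was 21.5 times below that of mammary replicate 2. Each of these tissues has 1 library, so their order from outer eye to nasal mucosa is a description.

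The salivary gland library held caseins without whey proteins. CSN1S2 had 21.3 FPKM there, its highest level outside the mammary group, and CSN3 had 19.8 FPKM. CSN2 was at 3.33 FPKM and CSN1S1 at 0.263 FPKM, and PAEP and LALBA were listed at 0. In the pituitary stalk and median eminence library CSN1S1 had 2.17 FPKM and CSN1S2 0.508 FPKM, with CSN2, PAEP and LALBA at 0.

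All 6 genes were above 0 in 13 further libraries, and their proportions there lay near those of 1 of the mammary libraries. The quotient of summed whey protein FPKM over summed casein FPKM was 6.43 in mammary replicate 1 and 0.246 in mammary replicate 2. It ran from 5.95 to 10.5 in 10 of the 13 libraries, namely jejunum, abomasum, vesicular gland, reticulum, rumen, vas deferens, frontal cortex, mesenteric lymph node, subcutaneous fat and the infundibulum labelled ipsilateral. In the other 3, the infundibulum labelled contralateral, the ileum and the bull testis, it was 0.316, 0.186 and 0.182. No library with all 6 genes lay between these ranges. With 5 genes above 0 the quotient was 0.172 in the lymph nodes, 0.817 in the cervical lining, 17.2 in the longissimus dorsi and 73.4 in the supraspinatus. The gap thus holds only where all 6 genes are required.

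**Figure D4:**
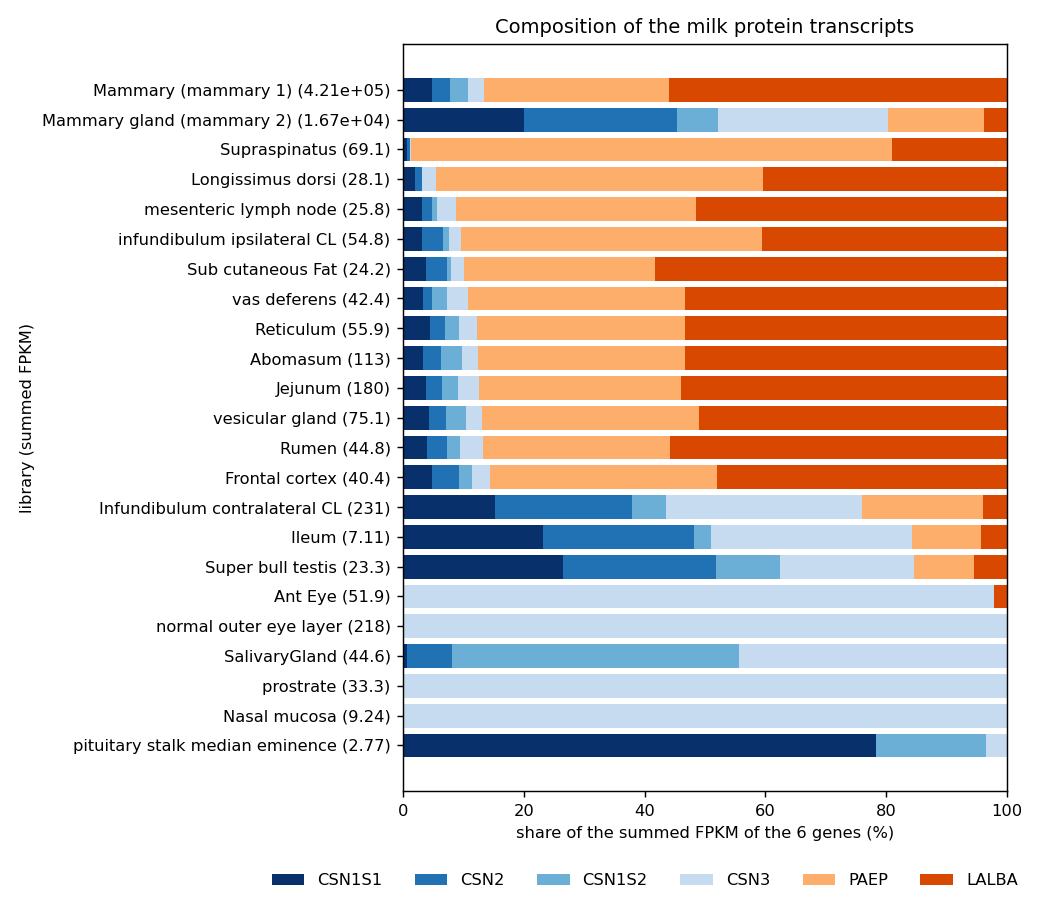
Share of each gene in the summed FPKM of the 6 genes (summed FPKM in brackets), with the mammary libraries on top and the other 21 libraries ordered by their whey protein share. Whey proteins (orange) make up 86.5% in mammary replicate 1, and caseins (blue) 80.3% in mammary replicate 2; below them are bars like one or the other, bars of caseins with little or no whey protein, and 2 muscles with 94.5% and 98.7% whey protein.

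The likeness held gene by gene. Each gene's level was divided by its level in a mammary library and expressed per 10000 FPKM there. In the vesicular gland the 6 genes lay between 1.55 and 2.10 per 10000 of replicate 1, a range of 1.35-fold, whereas relative to replicate 2 they ranged 140-fold. The range relative to replicate 1 was 1.38-fold in the reticulum, 1.57-fold in the jejunum, 1.71-fold in the abomasum and 1.88-fold in the rumen. Across all 10 libraries it was 1.35-fold to 5.62-fold relative to replicate 1 and 113-fold to 233-fold relative to replicate 2. The widest, subcutaneous fat, had CSN1S2 at only 0.153 FPKM. Without the vesicular gland the narrowest range was that of the reticulum. For comparison, the mammary replicates differed from each other by a 150-fold range over the 6 genes.

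The other 3 libraries lay closer to replicate 2. The contralateral infundibulum, the funnel of the oviduct, had 35.1 FPKM of CSN1S1, 52.2 of CSN2, 13.3 of CSN1S2, 74.7 of CSN3, 46.4 of PAEP and 8.95 of LALBA. These were 105 to 174 per 10000 of replicate 2, a 1.65-fold range, against a 168-fold range relative to replicate 1. The bull testis ranged 2.53-fold and the ileum 2.84-fold relative to replicate 2, and 87.4-fold and 155-fold relative to replicate 1. The infundibulum labelled ipsilateral lay closer to replicate 1, with a 4.56-fold range, than to replicate 2, with a 145-fold range.

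**Figure D5:**
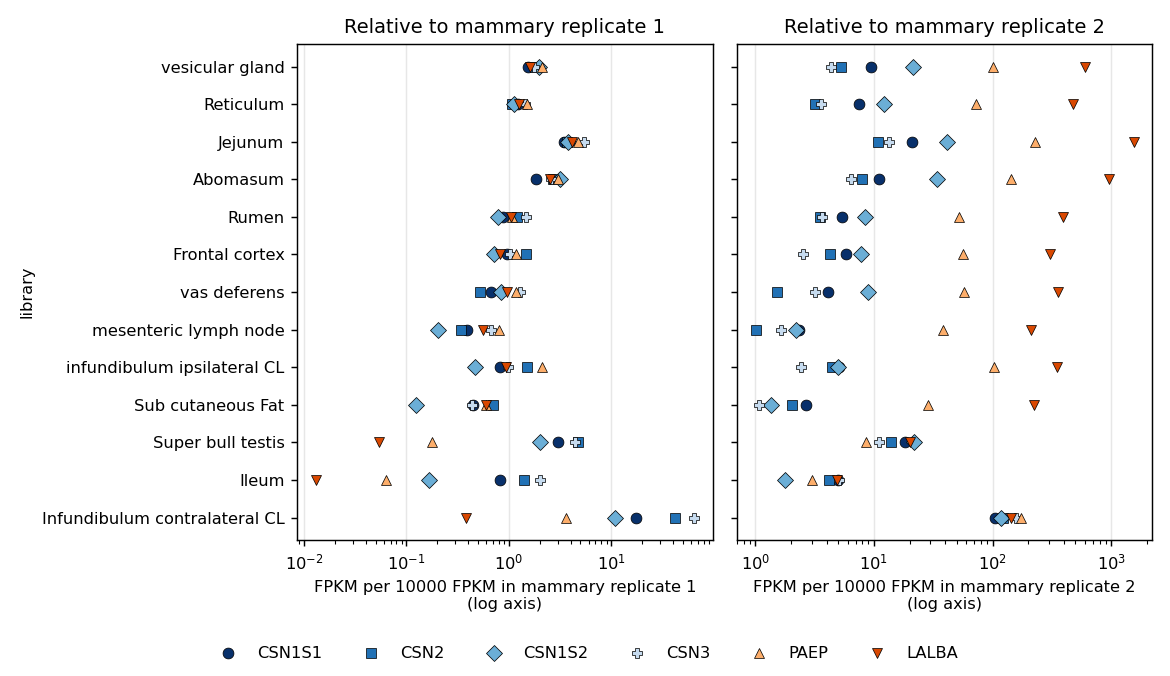
Level of each gene per 10000 FPKM of the same gene in mammary replicate 1 (left) and replicate 2 (right), on log axes, in the 13 libraries outside the mammary group with all 6 genes above 0. The points of the upper 10 libraries bunch together on the left (1.35-fold to 5.62-fold range) and those of the lower 3 on the right (1.65-fold to 2.84-fold).

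The median level of the 6 genes in these libraries was 0.475 to 3.98 per 10000 of replicate 1 in the 10 libraries and 4.53 to 132 per 10000 of replicate 2 in the 3. The highest LALBA and PAEP levels of the 13 were in the jejunum, with 97.3 FPKM of LALBA, 60.4 of PAEP, 6.94 of CSN1S1, 6.27 of CSN3, 4.67 of CSN1S2 and 4.60 of CSN2. The abomasum, the glandular stomach, had 60.0 FPKM of LALBA and 38.6 of PAEP. The tissues concerned were not of 1 kind. Among the 8 brain libraries the frontal cortex was the only one with a milk protein gene at 1 FPKM or more, and among the 4 forestomach libraries rumen and reticulum carried all 6 genes while rumen papillae and omasum had all 6 listed at 0. The pituitary and pineal genes that were high in mammary replicate 1 had mean log2(FPKM + 1) values between 0.81 and 4.28 in the 13 libraries, with a median of 1.60. The 4.28 was that of the frontal cortex, beside 4.15 in the cerebral cortex and 4.39 in the temporal cortex. The mean expected at the low fractions of the milk protein genes was not worked out. These values therefore cannot show whether the pituitary and pineal genes go along with the milk protein genes. No label gives a lane, run or extraction that the 13 libraries share with either mammary library, and FPKM without reads cannot tell transcripts made in these tissues apart from mammary transcripts carried over between samples or reads assigned to the wrong library. Which of these the low levels outside the mammary group reflect was not tested.

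A pair of skeletal muscle libraries carried the whey proteins with little casein. The supraspinatus had 55.1 FPKM of PAEP and 13.1 of LALBA, and the longissimus dorsi had 15.2 and 11.3. Their highest casein was 0.468 FPKM of CSN1S1 in the supraspinatus and 0.647 FPKM of CSN3 in the longissimus dorsi, and CSN1S2 was listed at 0 in both. LALBA over PAEP was 1.83 in mammary replicate 1, 0.236 in mammary replicate 2, 0.239 in the supraspinatus and 0.747 in the longissimus dorsi. The other 9 of 11 skeletal muscle libraries had PAEP and LALBA at 0.

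In the tissue classes outside the mammary group no milk protein gene was called. Each of 14 classes of 3 or more libraries was compared with all other libraries by limma, and 0 of 84 gene and class pairs were called, where 6.89% of all gene and class pairs were. None of the 84 had an unadjusted p under 0.05, and the smallest limma adjusted p was 0.289 (CSN3 in skeletal muscle, log2 difference -0.86 ± 0.72, SE). The shares of all genes called were 37.9% for skeletal muscle, 19.4% for brain, 10.1% for lymphoid organs and blood, 6.63% for intestine, 6.26% for oviduct and 6.03% for pituitary and pineal. They were 4.77% for forestomach, 3.94% for endometrium, 0.893% for male ducts, 0.227% for follicle, 0.172% for urinary tract, 0.105% for adipose, 0.0444% for respiratory tissue and 0.0111% for male accessory glands. The milk protein genes' log2 differences ran from -1.03 for LALBA in respiratory tissue to 1.49 for LALBA in forestomach, with a standard error of 1.27 for that in forestomach. Under each alternative run the count was 0 as well, also with the mammary libraries, otherwise part of the comparison side, left out. A lower call was out of reach for caseins in the main run. In the follicle, with every casein at 0, the log2 difference was -0.62 for CSN1S1, -0.61 for CSN2, -0.52 for CSN1S2 and -0.91 for CSN3. PAEP and LALBA, also listed at 0 in the follicle, had -1.01 and -1.02 there (SE 1.48 and 1.47), barely past the cutoff of 1. Their means over the libraries outside the mammary group were only 0.69 and 0.71 on the log2(FPKM + 1) scale. Leaving out the mammary libraries thus left even less room for a lower call. The count of 0 therefore cannot show that any of the 6 genes is no lower in any class. In the endometrium, where PAEP is known in humans, it was listed at 0 in 3 of 3 libraries, and the highest milk protein value there was 0.201 FPKM of LALBA.

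Across libraries the calcium-sensitive caseins varied together, as did the whey proteins. Over all 94 libraries Pearson's r of log2(FPKM + 1) was 0.96 to 0.99 among CSN1S1, CSN2 and CSN1S2 and 0.98 between PAEP and LALBA. Without the mammary libraries (n = 92) it was 0.94 between CSN1S1 and CSN2, 0.87 between CSN2 and CSN1S2, 0.78 between CSN1S1 and CSN1S2 and 0.97 between PAEP and LALBA. Between a calcium-sensitive casein and a whey protein it was then 0.55 to 0.80. CSN3 had the lowest values, with 0.32 to 0.56 without the mammary libraries and 0.71 to 0.86 over all 94. These correlations are descriptions over the same libraries, most of which have each gene listed at 0. By the same measure the gene outside the 6 most like each of them was ENSBTAG00000013417, with r from 0.80 for CSN3 to 0.95 for CSN1S1 over 94 libraries and 0.37 to 0.82 without the mammary libraries. It had 7647 and 185 FPKM in mammary replicates 1 and 2, and 5.34 FPKM in the supraspinatus, 5.26 in the contralateral infundibulum and 4.35 in the jejunum. Second in each case was ENSBTAG00000045737, with 31.5 and 58.0 FPKM in mammary replicates 1 and 2 and r of 0.03 to 0.27 without them. The files pair neither identifier with a name.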

How the data were processed

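The deposited table holds 1 FPKM value per gene and library. HISAT2, StringTie and UMD3.1 are the tools and build that the authors' deposited FPKM came from, per the submitters' processing notes. No tool version or gene annotation is given in the sources used here. FPKM of the abundant milk proteins lowers the FPKM of other genes in the same library. An exact 0 may be a failed estimate, so genes are said to be listed at 0. Symbols come from the list that defines the 6 genes. These genes, and the choice of lists and of the comparisons, were made with earlier results of these data known.

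Values were tested as log2(FPKM + 1), which understates folds of low genes, over the 18031 genes that reached 1 FPKM in 3 or more libraries. limma 3.58.1 in R 4.3.3 was used (empirical Bayes with trend, two-sided, Benjamini-Hochberg adjustment). The code was run on simulated normal values with equal spread in mammary and other libraries. The 6 genes are mostly listed at 0 outside mammary, so that run does not check their p-values. The spread came from all 94 libraries. Descriptions used Python 3.11.15, numpy 2.4.6 and pandas 2.3.3. Named genes are the 6, and for likeness the 2 other tested genes with the highest Pearson's r. Alternatives were a pseudocount of 0.1, other filters, rescaling to equal totals, quantile normalization, moving or leaving out mammary gland fat, and leaving out each replicate. A further alternative, chosen after seeing the data, left out 9 libraries each closest to a library of another tissue. Grouping of the libraries by composition was described only, and not tested.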

Additional observations from a re-analysis of the deposited data

Results flagged for a closer look

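In groups of 4 to 10 libraries where a milk protein gene reached 1 FPKM, 1 library stood far from the others in 21 of 32 cases. Chance flags about 1 in 20 groups of continuous, independent values, which is no measure here: the groups were taken because a gene reached 1 FPKM, most of their other libraries are at or near 0, and the genes share libraries. The frontal cortex stood apart from the other 7 brain libraries for CSN1S1 (1.93 FPKM), CSN2 (1.82), CSN3 (1.19), PAEP (15.2) and LALBA (19.4). The vas deferens stood apart from the 3 epididymis libraries for CSN1S1 (1.38 FPKM), CSN1S2 (1.02), CSN3 (1.49), PAEP (15.2) and LALBA (22.6), with all 3 at 0 for these genes. Among 6 oviduct libraries the contralateral infundibulum stood apart for the caseins CSN1S1 (35.1 FPKM), CSN2 (52.2), CSN1S2 (13.3) and CSN3 (74.7). The jejunum stood apart from the other 5 intestinal libraries for CSN1S2 (4.67 FPKM), PAEP (60.4) and LALBA (97.3). The mesenteric lymph node stood apart from the other 4 lymphoid and blood libraries for PAEP (10.3 FPKM) and LALBA (13.3). Single cases were CSN1S1 in the pituitary stalk and median eminence (2.17 FPKM) and CSN3 in the nasal mucosa (9.24 FPKM against at most 0.282 in the other respiratory libraries).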

How the results depend on the processing

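All 6 genes were called higher in mammary under each of the 10 alternatives run, and 0 of 84 gene and class pairs were called in the other classes under each alternative there, leaving out single libraries included. The number of all genes called between mammary and other libraries was less stable. It was 69 (49 higher and 20 lower), against 184 (35 and 149) with a pseudocount of 0.1 and 106 (73 and 33) with quantile normalization; the cause was not tested. Leaving out 1 mammary replicate gave 37 to 537 genes, 37 without replicate 1 (all higher) and 537 without replicate 2 (155 higher and 382 lower). Leaving out together the 9 libraries chosen after seeing the data moved it to 70. No paired analysis was possible because the labels give no replicate numbers or animals. Unknown depth limits values under 1 FPKM.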
